A study of Mus musculus with 9 samples.

Results

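Plvap, Emcn, Cav1, Cav2, Ehd2 and Ehd4 were taken by gene symbol from the count tables of 9 mouse libraries. They are 6 of the 24421 symbols in each table, and all 6 passed the filter on low counts. The libraries came from laser-induced choroidal neovascularization (CNV), in which a laser burn breaks the Bruch membrane and new vessels grow in from the choroid. Male mice of 8 weeks, whose strain is not given in the sources used here, received 4 burns per eye in every group. Each of the 3 groups was injected into the vitreous with 5 µg of its reagent and gave 3 libraries. ABTAA is an antibody against angiopoietin 2 that switches on Tie2, a receptor of endothelial cells, VEGF Trap is a decoy receptor that binds VEGF, and Fc is the antibody fragment used as the control. Lesion tissue (pigment epithelium and choroid) was collected by laser capture, and sequencing was from the 3 prime ends of transcripts. Which animals a library came from is not given, so the spread behind every p-value is that between libraries and may be technical.

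Capillaries of the choroid that face the pigment epithelium are fenestrated: their wall has pores, each spanned by a thin diaphragm. PLVAP is the protein that builds these diaphragms, and also those across the necks of caveolae, the flask-shaped pits of the endothelial membrane. Caveolin 1, encoded by Cav1, forms the caveola coat together with the cavins, and caveolin 2 joins it in mixed oligomers. EHD2 is an ATPase that sits at the caveola neck and holds the pit at the membrane, and EHD4 is an ATPase of the same family that works in endocytic recycling. Endomucin, encoded by Emcn, is a sialomucin of the endothelial surface. Caveolins and EHD2 are not limited to endothelium, since muscle and fat cells also carry many caveolae.

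In mm10 (GRCm38), Plvap lies on chromosome 8 from 71497765 to 71511752 and Emcn on chromosome 3 from 137341067 to 137432185. Cav2 (17281185 to 17289115) and Cav1 (17306335 to 17341452) are neighbours on chromosome 6, 17.2 kb apart and on the same strand. Ehd2 lies on chromosome 7 from 15946958 to 15967567 and Ehd4 on chromosome 2 from 120089175 to 120154606. None of the 6 overlapped an exon of another annotated gene or shared its 3 prime end with another transcript, as defined for the search of copies. The longest annotated transcript of Plvap had a GC content of 60.6%, against 37.5% for Cav2, 40.7% for Emcn and 42.6% for Cav1, and 49.7% for the median tested gene. Windows of 250 bases before an annotated start were found in RefSeq (GRCm38.p6) for 5 of the 6 genes, and Plvap was not matched. The windows of the neighbouring caveolin genes are shown with that of Emcn, so that the start regions of a pair 17.2 kb apart can be set beside their levels. Capitals mark GGAA or, on the other strand, TTCC, the core bound by ETS factors, a family active in endothelium.
Cav2, chr6:17280935-17281184, plus strand: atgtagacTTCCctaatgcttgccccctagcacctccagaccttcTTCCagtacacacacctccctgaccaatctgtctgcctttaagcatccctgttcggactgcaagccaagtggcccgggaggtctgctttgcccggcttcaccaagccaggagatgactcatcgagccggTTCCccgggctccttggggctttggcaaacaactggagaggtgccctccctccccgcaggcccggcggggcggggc
Cav1, chr6:17306085-17306334, plus strand: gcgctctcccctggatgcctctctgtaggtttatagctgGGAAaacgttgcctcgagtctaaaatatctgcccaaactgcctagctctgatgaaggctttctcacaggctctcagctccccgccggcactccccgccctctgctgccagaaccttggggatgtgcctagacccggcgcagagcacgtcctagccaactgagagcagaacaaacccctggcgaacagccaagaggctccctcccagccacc
Emcn, chr3:137340828-137341077, plus strand: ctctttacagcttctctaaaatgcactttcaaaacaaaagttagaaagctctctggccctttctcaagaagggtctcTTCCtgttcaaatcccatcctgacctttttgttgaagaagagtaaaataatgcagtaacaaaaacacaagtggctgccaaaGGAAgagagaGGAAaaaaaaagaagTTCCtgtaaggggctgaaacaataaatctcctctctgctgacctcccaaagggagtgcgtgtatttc
The core occurred 3 times before Cav2, 1 time before this start of Cav1 and 4 times before Emcn, and 93.4% of the 32851 windows of the same length held it at least once. A second Cav1 start, with its window at 17307390 to 17307639, had it 3 times. Ehd4 also had it 3 times and Ehd2 0 times, and the median over all windows was 3. The sequence GTAAACA or its reverse complement TGTTTAC, which FOX factors bind, was in none of the 6 windows of these genes and in 3.2% of all windows. These matches are descriptions of the sequence and not of bound sites.

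Total counts ran from 6335805 to 14439835 per library, and the limit that a count of 0 allows (3 counts, counting error only) lay between 0.209 and 0.469 CPM, the library-scaled unit used for all levels. Groups follow the sample titles; the headers inside the Fc tables use a different name, that of knockout controls. The pigment epithelium gene Rpe65 averaged 219 ± 49.6 CPM in ABTAA, 232 ± 41.8 CPM in VEGF Trap and 168 ± 36.3 CPM in Fc libraries, while its partner marker Best1 stayed under 1 CPM on average in every group. The endothelial genes Pecam1, Cdh5, Erg and Esam summed to 584 to 602 CPM in ABTAA, 445 to 487 CPM in VEGF Trap and 426 to 551 CPM in Fc. Of the 7 fat cell markers, the defining Adipoq and Plin1 averaged under 1 CPM in every group and Lep had 0 counts in all 9 libraries, while Plin4 averaged 86.7 ± 7.01 CPM in ABTAA, 83.2 ± 12.2 CPM in VEGF Trap and 62.7 ± 7.87 CPM in Fc.

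ABTAA against Fc addresses what the Tie2-activating antibody changed in the lesion. Of the 6 genes, Plvap rose and the other 5 did not pass the test, where 1.40% of all 14054 tested genes passed (0.847% as higher and 0.555% as lower). The median log2 fold change was 0.29 over the 6 genes and -0.00286 over all tested genes. An unadjusted p under 0.05 was reached by 3 of the 6 genes (Plvap, Cav1 and Ehd2), as by 16.9% of all tested genes. The libraries of both groups did not overlap for 3 of the 6 (Plvap, Cav1 and Emcn, each higher in ABTAA), as for 23.0% of all tested genes (11.7% higher and 11.3% lower). With library totals in place of TMM scaling, the calls over all genes were 66 higher and 106 lower, where TMM gave 119 higher and 78 lower. Plvap passed under both scalings, and also by DESeq2, which called 5.34% of tested genes, and by limma-voom, which called 2.92%.

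Plvap, the diaphragm gene, had 126, 134 and 114 CPM in ABTAA 1, 2 and 3, 95.7, 96.2 and 84.9 CPM in VEGF Trap 1, 2 and 3, and 82.6, 64.5 and 63.8 CPM in Fc 1, 2 and 3. All ABTAA libraries were above all VEGF Trap libraries, and all VEGF Trap libraries were above all Fc libraries. Plvap averaged 125 ± 10.2 CPM in ABTAA and 70.3 ± 10.6 CPM in Fc (SD, n = 3 each). Its log2 fold change was 0.83 ± 0.13 (SE, 95% interval 0.56 to 1.11, adjusted p = 0.0117, edgeR), a fold of 1.78, and it ranked 12th among the p-values of this comparison. The call ended without Fc 2 (log2 0.77, adjusted p = 0.0804), without Fc 3 (0.76, adjusted p = 0.0509), without ABTAA 2 (0.78, adjusted p = 0.0862) and against a fold of 1.2 (adjusted p = 0.0545). After a correction for GC content the log2 fold change was 0.63 (adjusted p = 0.0425).

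**Figure D1:**
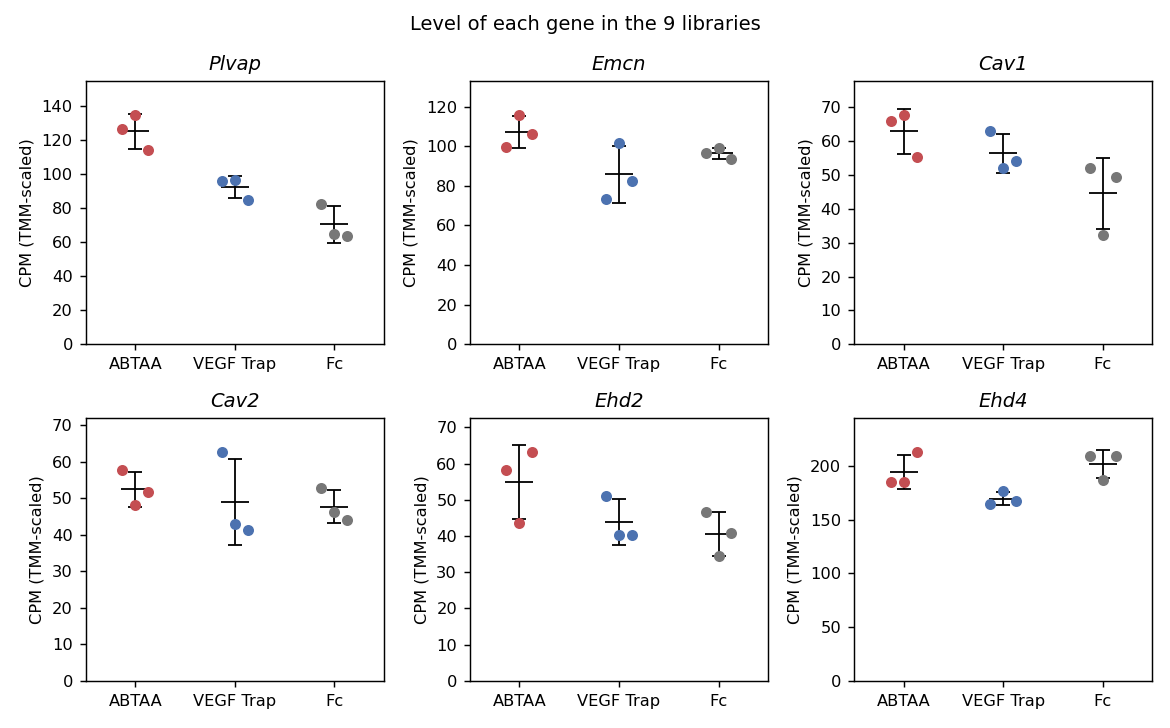
Level of each gene in CPM (TMM-scaled, vertical axis from 0) in the 3 libraries of ABTAA, VEGF Trap and Fc, with 1 point per library and the mean ± SD in black. Plvap stands at 114 to 134 CPM in ABTAA, 84.9 to 96.2 CPM in VEGF Trap and 63.8 to 82.6 CPM in Fc, while the Cav2 groups overlap.

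Emcn, the surface sialomucin, had 99.6, 116 and 106 CPM in ABTAA 1, 2 and 3, 73.5, 101 and 82.4 CPM in VEGF Trap 1, 2 and 3, and 96.4, 99.1 and 93.6 CPM in Fc 1, 2 and 3. The ABTAA libraries were above the Fc libraries by a narrow margin, and the VEGF Trap libraries reached both below and above Fc. The log2 fold change of ABTAA against Fc was 0.15 ± 0.13 (95% interval -0.12 to 0.43, adjusted p = 0.600, edgeR), so a rise of Emcn as large as that estimated for Plvap lies outside its interval. The GC correction gave 0.27 (adjusted p = 0.385). Every Emcn count was an even number, while Plvap, Cav1, Cav2, Ehd2 and Ehd4 had no common divisor. Counts of 2188 of the tested genes shared a divisor above 1, so the independent reads behind such a gene, and with them its level, may be fewer than its counts show. How these steps arose was not tested. With all counts divided by their divisors the log2 fold change of Emcn was 0.16 (adjusted p = 0.613).

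Neither caveolin gene passed the test. Cav1, the coat protein, had 65.9, 67.6 and 55.4 CPM in ABTAA 1, 2 and 3, 63.0, 52.1 and 54.1 CPM in VEGF Trap 1, 2 and 3, and 51.9, 32.4 and 49.3 CPM in Fc 1, 2 and 3. Both treated groups were above all Fc libraries, of which Fc 2 was the lowest. The log2 fold change of Cav1 in ABTAA against Fc was 0.50 ± 0.17 (95% interval 0.15 to 0.86, adjusted p = 0.136, edgeR), and it was 0.32 (adjusted p = 0.417) without Fc 2. After the GC correction it was 0.61 (adjusted p = 0.0938, edgeR), where that of Plvap was 0.63. Cav1 passed when no filter on low counts was applied (adjusted p = 0.0455), where 3.45% of genes did, and under no other alternative.

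Cav2, the partner of Cav1, had 57.6, 48.1 and 51.6 CPM in ABTAA 1, 2 and 3, 62.7, 42.9 and 41.5 CPM in VEGF Trap 1, 2 and 3, and 52.9, 46.3 and 44.1 CPM in Fc 1, 2 and 3. The groups overlapped, and the first library of each group was the highest of its group. The log2 fold change in ABTAA against Fc was 0.14 ± 0.16 (95% interval -0.21 to 0.48, adjusted p = 0.734, edgeR). Whether Cav1 and its neighbour Cav2 differed in their response was not tested, and their intervals overlap.

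Of the EHD genes, Ehd2, the ATPase of the caveola neck, had 58.4, 43.5 and 63.2 CPM in ABTAA 1, 2 and 3, 51.2, 40.2 and 40.3 CPM in VEGF Trap 1, 2 and 3, and 46.6, 34.5 and 40.9 CPM in Fc 1, 2 and 3. ABTAA 2 lay within the Fc range and the other ABTAA libraries above it. The log2 fold change in ABTAA against Fc was 0.43 ± 0.17 (95% interval 0.08 to 0.79, adjusted p = 0.197, edgeR). Ehd4, the recycling ATPase, had 185.3, 185.0 and 213 CPM in ABTAA 1, 2 and 3, 164, 176 and 168 CPM in VEGF Trap 1, 2 and 3, and 209, 187 and 209.5 CPM in Fc 1, 2 and 3. ABTAA and Fc overlapped for Ehd4, with a log2 fold change of -0.06 ± 0.11 (95% interval -0.28 to 0.17, adjusted p = 0.844). Without single libraries, the log2 fold change of Ehd2 ran from 0.33 to 0.58 and that of Ehd4 from -0.13 to -0.02.

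**Figure D2:**
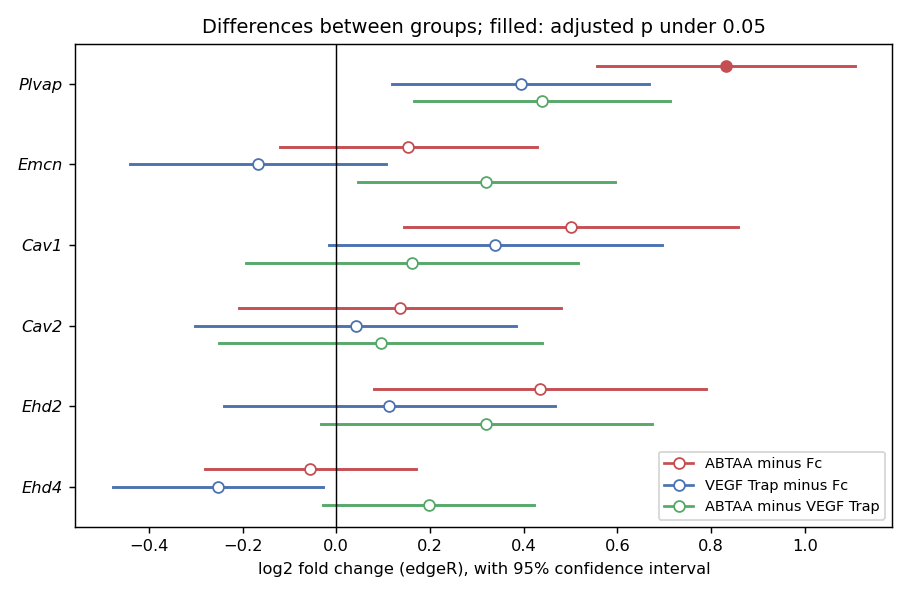
Log2 fold change (horizontal axis, edgeR) with its 95% confidence interval for each gene in the 3 comparisons (ABTAA against Fc, VEGF Trap against Fc, ABTAA against VEGF Trap), filled where the adjusted p was under 0.05. The only filled point is Plvap in ABTAA minus Fc at 0.83.

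VEGF Trap against Fc addresses what blocking VEGF changed. None of the 6 genes passed by edgeR, where 1.02% of tested genes did (0.512% higher and 0.512% lower), and 2 had an unadjusted p under 0.05 (Plvap and Ehd4), as did 15.4% of tested genes. By DESeq2 1 gene passed (Plvap, adjusted p = 0.0467), where 4.77% of tested genes did, and by limma-voom 0, where 1.72% did. Plvap averaged 92.2 ± 6.39 CPM in VEGF Trap and 70.3 ± 10.6 CPM in Fc (SD, n = 3 each), a log2 fold change of 0.39 ± 0.13 (95% interval 0.12 to 0.67, adjusted p = 0.139, edgeR), and 0.24 after the GC correction. Cav1 had a log2 fold change of 0.34 ± 0.17 (95% interval -0.02 to 0.70, adjusted p = 0.350), which was 0.16 without Fc 2 and 0.42 after the GC correction (adjusted p = 0.233). Ehd4 averaged 169 ± 6.14 CPM in VEGF Trap and 202 ± 12.8 CPM in Fc, a log2 fold change of -0.25 ± 0.11 (95% interval -0.48 to -0.03, adjusted p = 0.255). Emcn stood at -0.17 ± 0.13 (adjusted p = 0.584), which was -0.06 without VEGF Trap 1 and -0.31 without VEGF Trap 2. Ehd2 stood at 0.11 ± 0.17 (adjusted p = 0.803) and Cav2 at 0.04 ± 0.16 (adjusted p = 0.943), which was -0.04 with library totals and with limma-voom. The libraries of both groups did not overlap for 3 genes, with Plvap and Cav1 higher and Ehd4 lower in VEGF Trap, as for 20.9% of all tested genes (10.4% higher and 10.5% lower). This comparison and that of ABTAA share the Fc libraries, so their values for a gene are not independent.

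Set directly against VEGF Trap, ABTAA differed in 0 genes in all by edgeR (0%, so 0% higher and 0% lower), 1 by DESeq2 (0.00712%) and 0 by limma-voom (0%), and 711 genes had an unadjusted p under 0.05 (5.06%). Among the 6 genes 2 did, Plvap and Emcn. Plvap averaged 125 ± 10.2 CPM in ABTAA and 92.2 ± 6.39 CPM in VEGF Trap, a log2 difference of 0.44 ± 0.13 (95% interval 0.17 to 0.71, adjusted p = 0.932, edgeR). Emcn averaged 107 ± 8.07 CPM in ABTAA and 85.8 ± 14.3 CPM in VEGF Trap, a log2 difference of 0.32 ± 0.13 (95% interval 0.05 to 0.60, adjusted p = 0.953). Ehd2 stood at 0.32 ± 0.17 (adjusted p = 0.962), Ehd4 at 0.20 ± 0.11 (adjusted p = 0.962), Cav1 at 0.16 ± 0.17 (adjusted p = 0.967) and Cav2 at 0.09 ± 0.16 (adjusted p = 0.981). The libraries did not overlap for Plvap and Ehd4, both higher in ABTAA, where 9.88% of all tested genes did not overlap (5.14% higher and 4.74% lower). A difference in Plvap between ABTAA and VEGF Trap is therefore not shown over all genes, and the interval runs up to a fold of 1.64.

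In order of mean level, Plvap, Cav1, Cav2 and Ehd2 stood highest in ABTAA, next in VEGF Trap and lowest in Fc, Emcn in the order ABTAA, Fc and VEGF Trap, and Ehd4 in the order Fc, ABTAA and VEGF Trap. Neighbours in these orders overlapped in their libraries for Cav2 and Ehd2 throughout, for ABTAA and VEGF Trap in Cav1, for VEGF Trap and Fc in Emcn, and for ABTAA and Fc in Ehd4.

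In tissue of many cell types, more endothelial cells and more RNA per endothelial cell cannot be told apart. Plvap was also set against the summed CPM of Pecam1, Cdh5, Erg and Esam in the same library, as a description that does not separate these either. This ratio was 0.213, 0.223 and 0.195 in ABTAA 1, 2 and 3, 0.196, 0.216 and 0.179 in VEGF Trap 1, 2 and 3, and 0.150, 0.151 and 0.146 in Fc 1, 2 and 3. Both treated groups were above every Fc library and overlapped each other. The mean log2 ratio was -2.25 ± 0.10 in ABTAA, -2.35 ± 0.14 in VEGF Trap and -2.75 ± 0.03 in Fc (SD, n = 3 each), a difference of 0.50 for ABTAA minus Fc and 0.40 for VEGF Trap minus Fc. It ran from 0.45 to 0.55 and from 0.33 to 0.47 when single libraries were left out. Against the sum of all 19 endothelial genes, a choice made after seeing the data, the Plvap differences were smaller, 0.31 for ABTAA minus Fc and 0.19 for VEGF Trap minus Fc. That ratio was 0.0392 to 0.0444 in ABTAA, 0.0380 to 0.0396 in VEGF Trap and 0.0327 to 0.0345 in Fc, so both treated groups again lay above Fc. How many other genes separate in this way against the same sums was not counted. These ratios carry no correction for GC content. For Emcn the ratio was 0.167, 0.192 and 0.182 in ABTAA 1, 2 and 3, 0.151, 0.228 and 0.173 in VEGF Trap 1, 2 and 3, and 0.175, 0.232 and 0.214 in Fc 1, 2 and 3. The Emcn ratios of the 3 groups overlapped, whereas against all 19 genes they were 0.0331 to 0.0382 in ABTAA, 0.0292 to 0.0418 in VEGF Trap and 0.0397 to 0.0530 in Fc, with ABTAA below Fc. Egfl7 was the largest part of the 19-gene sum, averaging 1463 CPM in ABTAA, 1159 CPM in VEGF Trap and 1001 CPM in Fc. Eng came next at 454, 369 and 263 CPM, so both 19-gene ratios are weighted toward these genes. Egfl7 overlaps exons of other annotated genes on both strands. Of the 4 genes in the smaller sum, Pecam1 was the largest, averaging 354 CPM in ABTAA, 272 CPM in VEGF Trap and 259 CPM in Fc. Pecam1 rose in ABTAA (log2 0.45 ± 0.10, adjusted p = 0.0473, edgeR) and Erg stood at -0.07 ± 0.16.

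**Figure D3:**
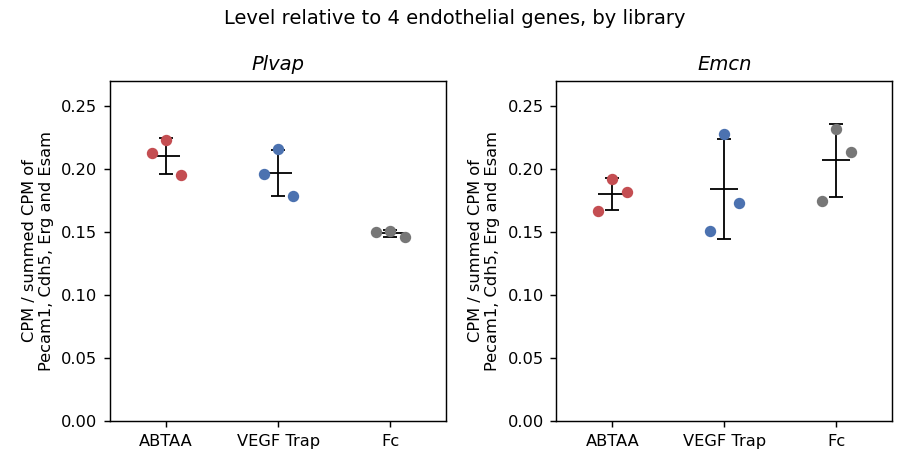
CPM of Plvap (left) and Emcn (right) divided by the summed CPM of Pecam1, Cdh5, Erg and Esam (vertical axis from 0, no unit), with 1 point per library and the mean ± SD in black. The Plvap ratio is 0.195 to 0.223 in ABTAA, 0.179 to 0.216 in VEGF Trap and 0.146 to 0.151 in Fc, and the Emcn ratios overlap.

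Marker sums of some cell types also differed between the groups, while others overlapped. By edgeR, 0.847% of all tested genes passed as higher and 0.555% as lower in ABTAA, and 0.512% each way in VEGF Trap. The 19 endothelial genes summed to 2912 to 3026 CPM in ABTAA, 2234 to 2514 CPM in VEGF Trap and 1870 to 2427 CPM in Fc, and 4 of them rose in ABTAA and 0 in VEGF Trap. The 13 skeletal muscle genes summed to 238 to 493 CPM in ABTAA, 229 to 400.2 CPM in VEGF Trap and 111 to 165 CPM in Fc, and 8 of them rose in ABTAA and 3 in VEGF Trap. The 11 pericyte and smooth muscle genes summed to 1046 to 1387 CPM in ABTAA, 765 to 1077 CPM in VEGF Trap and 789 to 1071 CPM in Fc, with 0 called. The 10 macrophage genes summed to 1469 to 1716 CPM in ABTAA, 1795 to 2031 CPM in VEGF Trap and 1827 to 1961 CPM in Fc, and 2 of them fell in ABTAA. The 7 adipocyte genes summed to 88.3 to 97.1 CPM in ABTAA, 79.1 to 95.2 CPM in VEGF Trap and 59.2 to 74.5 CPM in Fc, so both treated groups lay above Fc, and 0 of the 3 tested genes were called. Plin4 made up most of these sums (log2 0.47 ± 0.14, adjusted p = 0.0974, in ABTAA and 0.40 ± 0.14, adjusted p = 0.158, in VEGF Trap), and it overlaps an exon of Hdgfl2 on the other strand. Of the 3 tested genes, 2 had a positive and 1 a negative estimate in each comparison with Fc. The 6 lymphatic genes summed to 1743 to 1851 CPM in ABTAA, 1835 to 2145 CPM in VEGF Trap and 1985 to 2275 CPM in Fc, with 0 of 3 tested genes called. Nearly all of that sum was Pdpn. Of the defining lymphatic genes, Prox1 was too low to be tested. The other, Flt4, averaged 7.17 ± 1.17 CPM in ABTAA, 5.49 ± 0.90 CPM in VEGF Trap and 6.95 ± 1.61 CPM in Fc. The sums of the pigment epithelium and fibroblast lists overlapped between all groups, and 0 of their genes were called. The part of these markers in the levels of Plvap, Cav1 and Ehd2 was not tested.

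Of the other genes of the caveola coat and neck, all 15 were tested. In ABTAA against Fc 0 passed by edgeR, 2 by DESeq2 and 1 by limma-voom, where these tools called 1.40%, 5.34% and 2.92% of all tested genes. An unadjusted p under 0.05 was reached by 4 of the 15, against 16.9% of all tested genes, and the median log2 fold change was 0.16. The cavins form the coat with the caveolins. Cavin1, listed in the tables as Ptrf, averaged 1180.0 ± 85.6 CPM in ABTAA, 1033 ± 65.2 CPM in VEGF Trap and 986 ± 150 CPM in Fc, with log2 fold changes of 0.26 ± 0.11 (adjusted p = 0.268) in ABTAA and 0.07 ± 0.11 (adjusted p = 0.837) in VEGF Trap. Cavin2, listed as Sdpr, averaged 66.9 ± 13.9 CPM in ABTAA, 72.7 ± 11.1 CPM in VEGF Trap and 87.1 ± 4.94 CPM in Fc. All ABTAA libraries of Cavin2 were below all Fc libraries, as for 11.3% of all tested genes. Its log2 fold change was -0.38 ± 0.15 (adjusted p = 0.210) in ABTAA and -0.26 ± 0.15 (adjusted p = 0.447) in VEGF Trap. Cavin3, listed as Prkcdbp, stood at -0.22 ± 0.16 (adjusted p = 0.521) in ABTAA and -0.39 ± 0.16 (adjusted p = 0.237) in VEGF Trap, and overlaps an exon of Gm45667 on the other strand. The estimates of Cavin2 and Cavin3 were thus negative where those of Cav1 and Ehd2 were positive, and none of the 4 passed.

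Cav3 and Cavin4 (listed as Murc), the muscle forms of the coat, were near the limit of detection. Cav3 had 5, 23 and 16 counts in ABTAA 1, 2 and 3, 19, 9 and 7 in VEGF Trap 1, 2 and 3, and 2, 13 and 14 in Fc 1, 2 and 3, with a log2 fold change of 1.12 ± 0.73 (adjusted p = 0.470, edgeR) in ABTAA and 0.40 ± 0.73 (adjusted p = 0.853) in VEGF Trap. Murc averaged 1.30 ± 0.44 CPM in ABTAA, 1.12 ± 0.42 CPM in VEGF Trap and 0.97 ± 0.32 CPM in Fc. Neither gene had a group that stood apart from the others.

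In VEGF Trap against Fc, 1 of the 15 caveola genes rose and 0 fell, where 1.02% of tested genes passed, and the median was 0.07. The gene was Pacsin1, a membrane-bending F-BAR protein best known from neurons. It had 28.2, 31.8 and 23.3 CPM in VEGF Trap 1, 2 and 3 and 10.5, 12.6 and 15.9 CPM in Fc 1, 2 and 3. The groups thus did not overlap, as for 10.4% of all tested genes in that direction. The log2 fold change was 1.10 ± 0.19 (adjusted p = 0.0250, edgeR) in VEGF Trap and 0.63 ± 0.20 (adjusted p = 0.113, DESeq2 0.0496) in ABTAA. All its counts were multiples of 4, and the call ended with counts divided by that number (adjusted p = 0.0515), without Fc 1 (0.0715), Fc 2 (0.130) or VEGF Trap 2 (0.0584), and against a fold of 1.2 (0.0986). Pacsin2, the form of this protein found at caveolae of many cell types, stood at -0.53 ± 0.19 (adjusted p = 0.174) in VEGF Trap and -0.30 ± 0.19 (adjusted p = 0.449) in ABTAA, and all its counts were multiples of 3. Ehd1 stood at 0.06 ± 0.15 (adjusted p = 0.909) in VEGF Trap and 0.09 ± 0.15 (adjusted p = 0.824) in ABTAA, and Ehd3 at 0.27 ± 0.17 (adjusted p = 0.473) in VEGF Trap and 0.28 ± 0.17 (adjusted p = 0.429) in ABTAA. Flna, an actin crosslinker that binds caveolin 1 and was chosen after its values were seen, averaged 796 ± 16.1 CPM in ABTAA, 740.2 ± 76.0 CPM in VEGF Trap and 603 ± 29.3 CPM in Fc, from counts that were all multiples of 2. Its log2 fold change was 0.40 ± 0.10 (adjusted p = 0.0616) in ABTAA, where it passed by DESeq2 (0.00439) and limma-voom (0.0289), and 0.30 ± 0.10 (adjusted p = 0.158) in VEGF Trap.

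**Figure D4:**
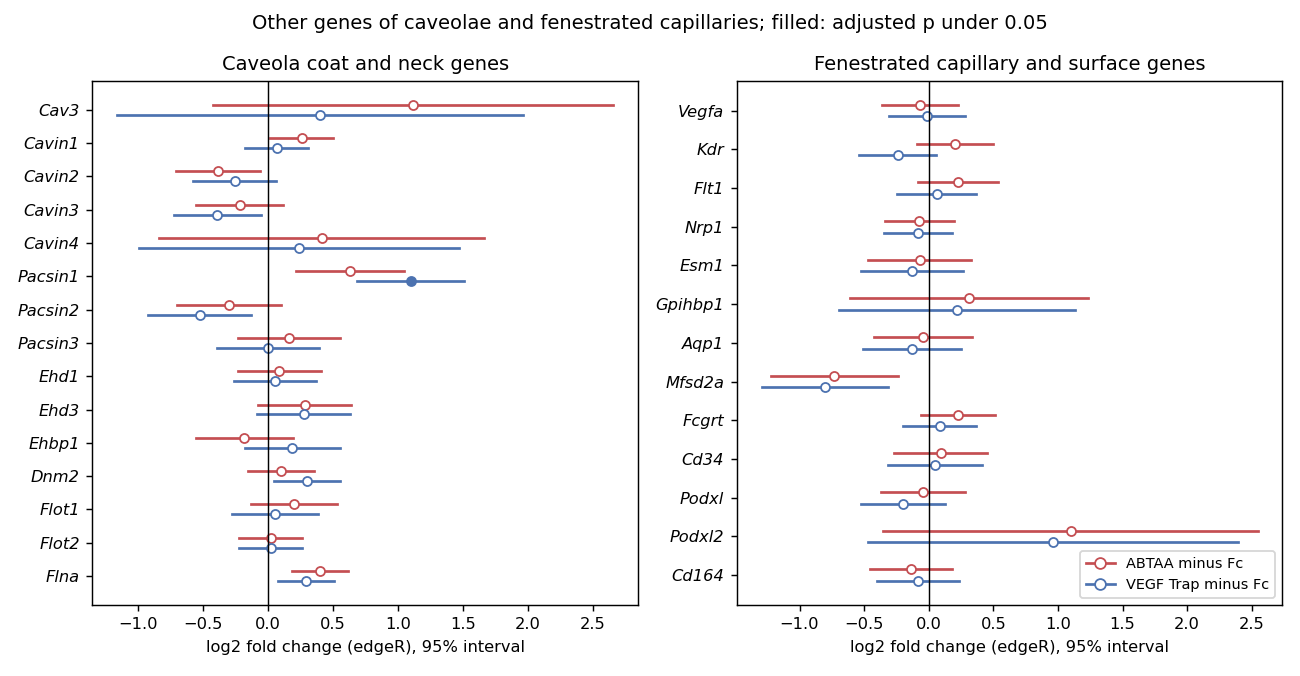
Log2 fold change (horizontal axis, edgeR) with its 95% interval for ABTAA minus Fc and VEGF Trap minus Fc, for 15 caveola genes (left) and 13 tested genes of fenestrated capillaries and the endothelial surface (right), filled where the adjusted p was under 0.05. Pacsin1 in VEGF Trap minus Fc, at 1.10, is the only filled point, and the widest intervals belong to genes of very low level such as Cav3.

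The list of fenestrated capillary and endothelial surface genes held 14 genes, of which 13 were tested. The untested gene was Car4, which had 0 counts in the 3 ABTAA libraries, 1, 0 and 0 in VEGF Trap 1, 2 and 3, and 7, 1 and 4 in Fc 1, 2 and 3. By edgeR 0 genes passed in either comparison with Fc. An unadjusted p under 0.05 was reached by 1 of the 13 in each, Mfsd2a, against 16.9% of all tested genes in ABTAA and 15.4% in VEGF Trap. DESeq2 called 0 in ABTAA and 1 in VEGF Trap, as did limma-voom, where over all tested genes DESeq2 called 5.34% and 4.77% and limma-voom 2.92% and 1.72%. The median log2 fold change was -0.05 in ABTAA and -0.08 in VEGF Trap. Vegfa, whose protein from the pigment epithelium maintains the fenestrae, averaged 287 ± 45.6 CPM in ABTAA, 298 ± 11.9 CPM in VEGF Trap and 300.5 ± 54.0 CPM in Fc, from counts that were all multiples of 3, with log2 fold changes of -0.07 ± 0.14 in ABTAA and -0.01 ± 0.14 in VEGF Trap. Its receptor gene Kdr had 62.0, 56.8 and 50.5 CPM in ABTAA 1, 2 and 3, 42.2, 46.7 and 35.4 CPM in VEGF Trap 1, 2 and 3, and 53.8, 47.3 and 46.4 CPM in Fc 1, 2 and 3. The ABTAA libraries of Kdr were above the VEGF Trap libraries (log2 difference 0.44 ± 0.14, adjusted p = 0.932), as for 5.14% of all tested genes. Fc overlapped ABTAA and VEGF Trap. Kdr stood at 0.20 ± 0.14 (adjusted p = 0.501) in ABTAA and -0.24 ± 0.14 (adjusted p = 0.440) in VEGF Trap against Fc.

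The VEGF co-receptor gene Nrp1 stood at -0.07 ± 0.13 in ABTAA and -0.08 ± 0.13 in VEGF Trap, and the sialomucin gene Cd34 at 0.09 ± 0.17 in ABTAA and 0.05 ± 0.17 in VEGF Trap, with none called. Mfsd2a, a lipid transporter known in brain endothelium to hold back caveolar transport and chosen after its values were seen, had 11.4, 14.7 and 12.5 CPM in ABTAA 1, 2 and 3, 14.1, 8.15 and 14.8 CPM in VEGF Trap 1, 2 and 3, and 16.3, 23.8 and 24.0 CPM in Fc 1, 2 and 3. For Mfsd2a every treated library was below every Fc library. Over all tested genes, 11.3% were lower without overlap in ABTAA and 10.5% in VEGF Trap. The log2 fold change of Mfsd2a was -0.73 ± 0.23 (adjusted p = 0.117, edgeR) in ABTAA and -0.80 ± 0.23 (adjusted p = 0.0948) in VEGF Trap, where it passed by DESeq2 (0.0313) and limma-voom (0.0448). Mfsd2a is not limited to endothelium, and the cells that carried it here were not identified.

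Likeness was measured as the root mean square difference of log2 levels, centred per gene, over the 9 libraries, among 8479 other genes of at least 10 CPM on average. The 3 genes most like Plvap were Ramp3 (0.0791), which encodes a receptor partner of the adrenomedullin system, Eng (0.0983), the TGF-beta co-receptor of endothelium, and Trip10 (0.117), an F-BAR protein, against a median of 0.406 over all these genes. Eng counts were all multiples of 3, and Eng overlaps an exon of Fpgs on the other strand. Of the other 5 genes, Cav1 was nearest to Plvap (0.215, rank 110) and Ehd4 farthest (0.403, rank 4144). Ehd4 and Emcn were at 0.157 from each other and Cav1 and Cav2 at 0.271. Nearest to Cav1 were 2410004B18Rik (0.103), Kdm1a and Tmem185b, to Cav2 Thra (0.0703), Zcchc17 and Ddx1, and to Ehd2 Mat2b (0.0967), Pabpc4 and Plac8. Nearest to Ehd4 were Pros1 (0.0397), Ptprg and Edc4, and to Emcn Cnnm3 (0.0646), C2cd2 and Serping1. These distances come from 9 libraries that share their groups and depth, and genes of small spread lie close to many others.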

How the data were processed

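The deposited files give raw counts by gene symbol, a file per library. The submitters' processing notes name Bowtie2, edgeR and mm10, and the labels' protocols name LEXOGEN QuantSeq with 500 ng of RNA; the sources used here state no version, annotation, counter or strand setting. No line lacked a gene name (0). After filterByExpr 14054 genes remained. They were scaled by TMM and tested by edgeR 4.0.16's quasi-likelihood test (R 4.3.3) in a single model of 9 libraries with 6 residual degrees of freedom. Benjamini-Hochberg adjustment covered all tested genes, and calls needed an adjusted p under 0.05. Standard errors were derived from the fold change and its F statistic, with 95% intervals. Levels are TMM-scaled CPM, and likeness used log2(CPM + 0.5). The model was also run on simulated counts with changes larger than any estimated for the 6 genes. That run does not show how often changes of their size are found.

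Alternative tests were DESeq2 1.42.0 and limma-voom (limma 3.58.1), which was run throughout with quality weights per library. For scaling and filter they were RLE scaling, library totals, no filter, and at least 10 counts in 6 libraries. Further alternatives were fits to the compared groups alone, a replicate block and testing beyond a 1.2-fold change. Others were division of counts by their common divisor, a GC content offset (99.2% of tested genes had a value) and omitting each library. Coordinates come from GENCODE M21 (GRCm38). Copies were sought with BLAST+ 2.17.0 in the last 200 bases of transcripts, where 100 bases at 95% identity counted.

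The 6 genes and all lists were chosen with earlier results of these data known. The text names the 6 genes, 11 fixed genes of the caveola and fenestrated capillary lists and called members of these lists. It also names the 3 nearest genes in likeness and the defining markers of endothelial, lymphatic, pigment epithelium and fat cells. Defining markers of the other cell types were part of this rule too, but appear only within their sums. Flna, Mfsd2a, Murc, Car4, Plin4, Pdpn, Lep and Egfl7 fall outside this rule and were named after their values were seen. All libraries were kept. Within a group they differed beyond the noise of independent counts (chi-square per degree of freedom 8.12 to 19.3). Counts in multiples can raise this value, so it does not show that the libraries are separate samples.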

Additional observations from a re-analysis of the deposited data

How the results depend on the processing

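Of 938 recomputed log2 fold changes (47 gene results), 887 kept their direction and side of the threshold, 9 lost and 13 gained a call, and 29 changed sign; the cause was not tested. Of the correlations between deviations from group means, 8 of 9 were positive for libraries of the same replicate number (-0.00722 to 0.266) and 13 of 18 negative for different numbers (-0.189 to 0.12). The deviations of a gene cancel within each group, so the signs for different numbers partly follow from those for the same number. Same-number correlations were at most 0.266 and no label gives a shared origin, so the numbers were not taken to pair libraries. A shared origin is not excluded. With the replicate block the calls over all genes were 334 for ABTAA minus Fc, 300 for VEGF Trap minus Fc and 1 for ABTAA minus VEGF Trap, against 197, 144 and 0 without it. Between VEGF Trap and Fc every library correlated best with its own number, a hint from the data and not the design, but not between ABTAA and the other groups. The block changed Vegfa in VEGF Trap minus Fc to 0.00205.

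For ABTAA minus Fc the calls over all genes were 750 by DESeq2, 411 by limma-voom, 684 with no filter, 301 with only the groups compared, 10 against a fold of 1.2, 75 with the GC offset and 0 to 373 with single libraries left out (0 without ABTAA 2, where 1743 had an unadjusted p under 0.05, and 13 without Fc 2). For VEGF Trap minus Fc they were 671, 242 and 616 by DESeq2, limma-voom and no filter, 2 against a fold of 1.2, 249 with divided counts, 221 with library totals, and 7 to 144 with single libraries left out (7 without Fc 2). For ABTAA minus VEGF Trap they were 1 by DESeq2 and 30 with no filter. Of the 6 genes, ABTAA minus Fc called 2 with no filter, 0 against a fold of 1.2 and 0 to 1 with single libraries left out, and VEGF Trap minus Fc called 1 by DESeq2. Of the caveola list, ABTAA minus Fc called 2 by DESeq2, 1 by limma-voom, 2 with no filter, 1 with only the groups compared and 0 to 1 with single libraries left out, and VEGF Trap minus Fc called 0 against a fold of 1.2, 0 with divided counts and 0 to 1 with single libraries left out. Of the fenestrated capillary list, ABTAA minus Fc called 1 with no filter, and VEGF Trap minus Fc called 1 each by DESeq2, limma-voom and no filter.

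The values that changed sign in VEGF Trap minus Fc were, with library totals, Cav2 (-0.0415), Ptrf (-0.00775), Ehd1 (-0.0222) and Cd34 (-0.0324), with limma-voom Cav2 (-0.038), and with the GC offset Ptrf (-0.0307), Ehd1 (-0.0598) and Nrp1 (0.000323). In ABTAA minus Fc the GC offset gave Ehd1 -0.0665 and Nrp1 0.035. With single libraries left out, VEGF Trap minus Fc ran from -0.169 to 0.146 for Cav2, -0.00452 to 0.221 for Ehd2, -0.0264 to 0.223 for Ehd1, -0.111 to 0.144 for Vegfa, -0.215 to 0.037 for Nrp1, -0.112 to 0.219 for Cd34, -0.0252 to 0.194 for Ptrf and -0.0417 to 0.701 for Cav3. ABTAA minus Fc ran from -0.169 to 0.0863 for Vegfa and -0.0479 to 0.235 for Cd34, and ABTAA minus VEGF Trap from -0.00608 to 0.309 for Cav2 and from -0.1403 to 0.1573 for the Emcn ratio, which was 0.01263 against all 19 endothelial genes (added after seeing the data). The median standard error for ABTAA minus Fc was 0.20 over all tested genes, and those of the 6 genes ran from 0.11 (Ehd4) to 0.17 (Cav1). The size of change that 3 libraries a group could show also depends on the adjustment over all genes and was not estimated.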
